A study of Sus scrofa with 6 samples.

Results

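WT1, ALX4, PITX1, SOX6, TEAD1 and SMAD5 are 6 transcription factors of mesoderm, limb and coelomic development whose genes lie on pig chromosome 2. They were taken by name and by chromosome, as 6 of the 2675 chromosome 2 genes for which transcripts were quantified. RNA-seq was performed on whole embryos at embryonic day 21, all labelled Landrace x Yorkshire x Duroc (LYD), with 3 parthenogenetic embryos (PA1 to PA3) and 3 biparental control embryos (CN1 to CN3). PA embryos came from LYD oocytes matured in vitro and activated by electric pulses, carried 2 maternal and no paternal genomes, and grew in surrogate gilts after transfer into the oviducts. CN embryos came from Landrace x Yorkshire gilts mated naturally with boars whose breed is not given in the sources used here, and neither group received any further treatment. In vitro maturation, electric activation, embryo transfer, the breed of the egg donor and the absence of a paternal genome therefore came together in PA and cannot be told apart here. Each library was 1 embryo, and the labels do not say which gilt carried it, so that p-values measure the spread between embryos only.

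The embryos held 3100284 to 3573406 estimated counts each. Transcripts of chromosome 2 in the annotation made up 82.8% to 92.7% of them, and transcripts absent from the annotation, each kept as a gene of its own, 6.93% in CN1 to 17.0% in PA1. IGF2, which is expressed from the paternal allele, had 35492 to 42086 normalised CPM (counts per 1000000, after TMM scaling and a length offset) in CN and 599 to 1280 in PA, as the labels of the groups imply. Since other chromosomes held almost no counts, CPM and TPM here are shares of chromosome 2 and of these transcripts, and not levels in the whole transcriptome. A gene was called when its adjusted p-value in the quasi-likelihood test of edgeR, over the 1652 genes tested, was under 0.05. By that rule 6.54% of the genes tested were called, 2.12% higher and 4.42% lower in PA, and 2.91% also had an absolute log2 fold change above 1. With library totals in place of TMM factors, 23 genes were called higher and 103 lower, instead of 35 and 73.

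WT1 is a zinc finger protein of the coelomic lining, the gonadal ridge and the kidney, where it acts from the early mesenchyme to the podocyte of the glomerulus. ALX4 and PITX1 are homeodomain proteins. ALX4 helps to set the anterior border of the limb bud and shapes the skull, and PITX1 specifies hindlimb identity. SOX6 is an HMG-box protein of cartilage, erythroid and muscle differentiation. TEAD1 binds DNA for the YAP and TAZ coactivators at the end of the Hippo pathway and is prominent in the heart. SMAD5 carries the signal of BMP receptors to the nucleus. All 6 loci are on chromosome 2 of Sscrofa11.1. ALX4 lies at chr2:18070726-18085685 on the plus strand, WT1 at chr2:28411467-28456007 on the plus strand, and SOX6 at chr2:42447391-43068824 on the plus strand. TEAD1 lies at chr2:46396490-46670619 on the minus strand, PITX1 at chr2:137200424-137212500 on the minus strand, and SMAD5 at chr2:138287635-138344092 on the plus strand.

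WT1 and TEAD1 messages differ among themselves in short coding parts, which are shown because the transcript shares given further on turn on them. The sequences were read from the RefSeq genome of Sscrofa11.1. In WT1, an exon of 51 bases may be left out, and the exon before the last may end at an upstream donor or 9 bases further on. These 9 bases code for the KTS residues between the last zinc fingers, and forms with and without KTS are known to differ in DNA and RNA binding. In TEAD1, an exon of 12 bases may be left out, and 2 exons of 63 bases each lie 89 intron bases apart. The 63-base exons are alike: 44 of their 63 bases are the same, an identity of 69.8%. In the lines with a 51-base or a 12-base exon, exon bases are in capitals and the 10 intron bases on each side in lower case. In the line of the splice end, the capitals mark the 9 added bases. In the last 2 lines, the capitals mark bases that differ between the exons. Exon B precedes exon A in the message.
WT1 51-base exon, chr2:28429858-28429928, plus strand: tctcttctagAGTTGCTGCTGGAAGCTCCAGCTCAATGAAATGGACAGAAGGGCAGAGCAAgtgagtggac
WT1 splice end, chr2:28452073-28452121, plus strand: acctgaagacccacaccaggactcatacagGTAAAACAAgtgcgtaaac
TEAD1 12-base exon, chr2:46456408-46456439, minus strand: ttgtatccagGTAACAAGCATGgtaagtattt
TEAD1 63-base exon A, chr2:46469819-46469881, minus strand: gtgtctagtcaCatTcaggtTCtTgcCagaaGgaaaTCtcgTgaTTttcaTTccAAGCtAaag
TEAD1 63-base exon B, chr2:46469971-46470033, minus strand: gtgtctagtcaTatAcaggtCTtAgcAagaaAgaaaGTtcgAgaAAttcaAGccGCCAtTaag

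All 6 genes were expressed in every embryo and passed the filter on low counts. WT1 fell in PA, and no other member was called. Thus 1 of 6 members was called by edgeR, against 6.54% of all genes tested, and 0 were called higher. At an unadjusted p under 0.05 there were 3 of 6, WT1, ALX4 and PITX1, against 21.2% of all genes tested. That count was 1, WT1, with library totals in place of TMM factors, and 2, without PITX1, with the replicate number as a block, with chromosome 2 genes only and without CN1, CN2, PA1 or PA2. The log2 fold changes of the 6 had a median of 0.13, beside 0.016 over all genes tested, and none exceeded 1 in size. The 2 groups did not overlap in normalised CPM in 2 of 6 members, WT1 and ALX4, against 28.3% of all genes tested.

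**Figure D1:**
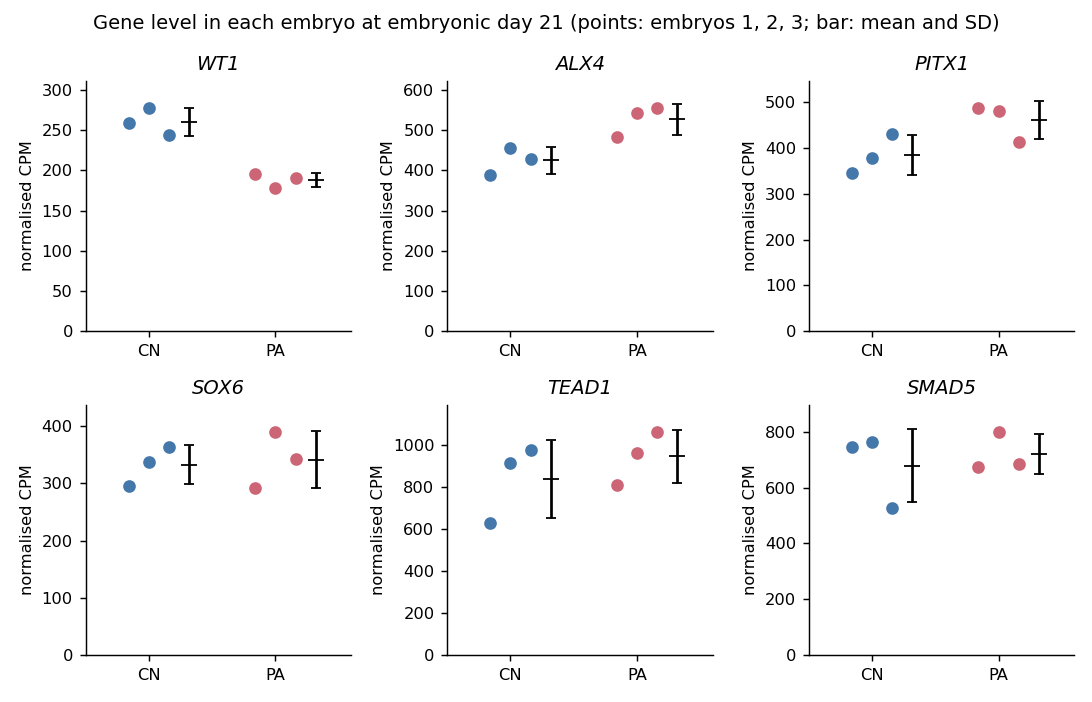
Normalised CPM of each of the 6 genes (vertical axes, from 0) in CN and PA embryos. Points stand for embryos 1, 2 and 3 from left to right within a group, and the bars for the mean and SD. WT1 was 178 to 196 in PA, under the 244 to 278 of CN, and ALX4 was 482 to 555 in PA, over the 389 to 457 of CN.

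The estimated counts of WT1 were 879, 895 and 786 in CN1, CN2 and CN3, and 637, 582 and 680 in PA1, PA2 and PA3. The normalised CPM was 259, 278 and 244 in CN, a mean of 260 ± 17.1 (SD, n = 3). It was 196, 178 and 191 in PA, a mean of 188 ± 9.04 (SD, n = 3). Every PA embryo lay below every CN embryo. WT1 fell by 0.47 on the log2 scale (SE 0.092, 95% interval -0.68 to -0.26), and the ratio of PA to CN was 0.724 (95% interval 0.625 to 0.838), with an adjusted p of 0.0217 in edgeR. The gene ranked 67 by p among the 1652 tested. Its decrease was modest beside the others: 5 of the 73 genes called lower had a smaller one. The call was lost when CN2, CN3, PA2 or PA3 was left out, with adjusted p of 0.108, 0.0563, 0.0934 and 0.0701 and log2 fold changes of -0.41, -0.49, -0.43 and -0.46. Over all 13 other settings the adjusted p ran from 0.000842 to 0.108. On the TPM scale (transcripts per 1000000, which accounts for transcript length), WT1 was 129, 164 and 137 in CN and 94.1, 93.6 and 109 in PA. These groups did not overlap either, and the exact permutation test, two-sided, gave p = 0.1, the smallest that 3 against 3 embryos allow. RNA of a whole embryo was measured, so that fewer WT1-expressing cells and less WT1 RNA per cell cannot be told apart.

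ALX4 had 1242, 1473 and 1441 estimated counts in CN and 1580, 1808 and 1964 in PA. Its normalised CPM was 389, 457 and 429 in CN (mean 425 ± 34.1, SD, n = 3) and 482, 542 and 555 in PA (mean 527 ± 38.9, SD, n = 3). Each PA embryo lay above each CN embryo. The log2 fold change of ALX4 was 0.31 (SE 0.095, 95% interval 0.09 to 0.53), but it was not called, with an adjusted p of 0.103 in edgeR and 0.0639 to 0.304 over the 13 other settings. In TPM, ALX4 was 119, 166 and 148 in CN and 142, 174 and 195 in PA, so that the groups overlapped on this scale (exact permutation p = 0.3).

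PITX1 had 1202, 1231 and 1394 estimated counts in CN and 1523, 1594 and 1463 in PA. The normalised CPM was 346, 378 and 431 in CN (mean 385 ± 43.1, SD, n = 3) and 488, 482 and 413 in PA (mean 461 ± 41.3, SD, n = 3). PA3 lay below CN3, so the groups overlapped. The log2 fold change of PITX1 was 0.26 (SE 0.11, 95% interval 0.0063 to 0.51) with an adjusted p of 0.226 in edgeR. The TPM of PITX1 was 329, 425 and 461 in CN and 446, 480 and 449 in PA (exact permutation p = 0.3).

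SOX6 had normalised CPM of 296, 338 and 364 in CN and of 291, 391 and 342 in PA. The lowest and the highest of the 6 embryos were both PA. Its log2 fold change was 0.04 (SE 0.13, 95% interval -0.26 to 0.33, adjusted p = 0.892 in edgeR), and it took the opposite sign with library totals in place of TMM factors. In TPM, SOX6 was 51.9, 70.1 and 71.7 in CN and 49.1, 71.9 and 68.6 in PA (exact permutation p = 0.7). Embryo 1 of each group had the lowest value.

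TEAD1 had normalised CPM of 628, 912 and 976 in CN and of 811, 963 and 1064 in PA. CN1 stood lowest, and the remaining values overlapped. The log2 fold change was 0.17 (SE 0.17, 95% interval -0.22 to 0.56, adjusted p = 0.615 in edgeR), and it was 0.011 without CN1 and 0.32 without CN3. In TPM, TEAD1 was 121, 207 and 210 in CN and 150, 194 and 233 in PA (exact permutation p = 0.7).

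SMAD5 had normalised CPM of 747, 764 and 528 in CN and of 674, 802 and 686 in PA. CN3 stood lowest here, and without it the log2 fold change went from 0.08 to -0.05. With all embryos the SE was 0.15, the 95% interval -0.25 to 0.42 and the adjusted p 0.79 in edgeR. In TPM, SMAD5 was 152, 184 and 121 in CN and 132, 171 and 160 in PA (exact permutation p = 0.9). The intervals of SOX6, TEAD1 and SMAD5 took in changes of either sign, so that no difference was detectable at this number of embryos.

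**Figure D2:**
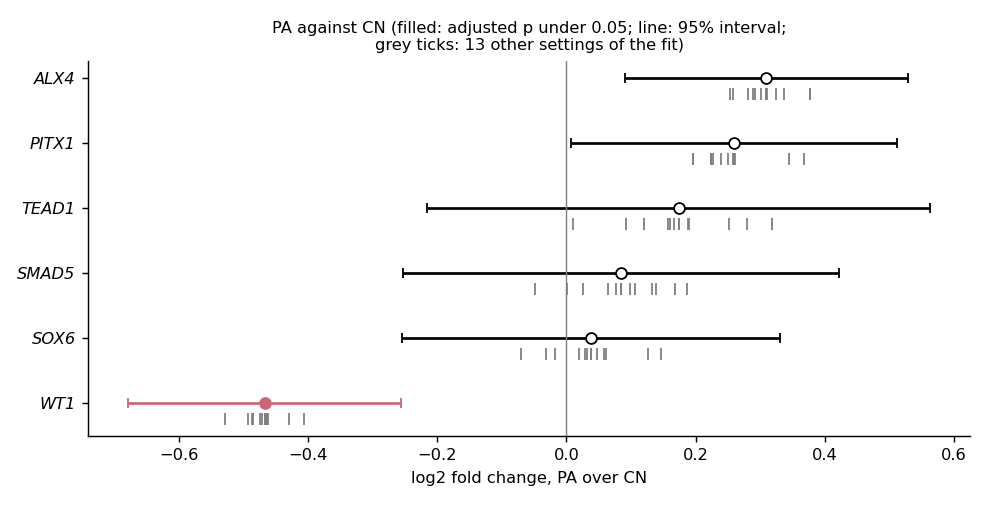
Log2 fold change of PA over CN (horizontal axis) for each of the 6 genes, with its 95% interval as a line and the values of the 13 other settings as grey ticks. WT1, the only filled point, was at -0.47 and ranged from -0.53 to -0.41 over those settings.

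TPM allows the 6 genes to be ordered by level. In CN, PITX1 was highest (405 ± 68.1 TPM, mean ± SD, n = 3), followed by TEAD1 (179 ± 51.0), SMAD5 (152 ± 31.5), ALX4 (144 ± 23.4), WT1 (144 ± 18.4) and SOX6 (64.5 ± 11.0). TEAD1, SMAD5, ALX4 and WT1 overlapped one another in CN, whereas all PITX1 values were above and all SOX6 values below theirs. In PA, the order was PITX1 (458 ± 19.1 TPM), TEAD1 (192 ± 41.8), ALX4 (170 ± 26.4), SMAD5 (154 ± 20.2), WT1 (99.0 ± 8.82) and SOX6 (63.2 ± 12.3). There WT1 stood by itself, with its 3 values below those of TEAD1, ALX4 and SMAD5 and above those of SOX6. Among the 1539 chromosome 2 genes tested, WT1 was in place 761 by mean TPM in CN and in place 878 in PA. PITX1 held places 380 and 316, TEAD1 688 and 643, SMAD5 737 and 719, ALX4 759 and 688, and SOX6 1007 and 1003.

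The transcripts of each gene were then compared. Their estimated counts divide reads that several transcripts share, and the groups of transcripts below were formed from the annotation after the values had been seen, so their shares are given as a description. WT1 had 5 annotated transcripts, 4 of which reached 3 counts in an embryo. The leading one, XM_013994456.2, lacks the 51-base exon and has the 9 added bases. It held 79.2%, 63.5% and 66.1% of the WT1 TPM in CN and 73.2%, 74.6% and 68.1% in PA. The shares overlapped, with a difference of 2.35 percentage points (exact permutation p = 0.8). Transcripts with the 51-base exon held 12.0%, 24.4% and 23.1% in CN and 21.8%, 21.1% and 16.9% in PA. One of them, NM_001001264.1, has both the exon and the 9 added bases, and was at 0 estimated counts in CN1 and at 53.1 to 113 in the other embryos.

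Transcripts of WT1 with the 9 added bases held 79.2%, 79.3% and 87.9% of its TPM in CN and 87.7%, 91.5% and 80.5% in PA, again with overlap. In estimated counts, not scaled for depth, they had 678, 680 and 674 in CN and 544, 523 and 529 in PA. These 2 groups were apart, as they were in the counts of the whole gene. Transcripts without these bases had 201, 215 and 112 in CN and 93, 59 and 150 in PA, and overlapped. Their mean share of the TPM was 17.9% in CN and 13.5% in PA, beside 82.1% and 86.5% for transcripts with the bases. A fall particular to the form with the 9 bases is thus not shown. WT1 transcripts that begin at the internal first exon, from position 28414871, held 1.3% to 12.0% of the TPM in CN and 4.18% to 7.30% in PA. The 5′ end of WT1 overlaps by 146 bases with LOC102161978, a lncRNA gene on the minus strand at chr2:28358562-28411612. Its log2 fold change was -0.40 (SE 0.28, adjusted p = 0.461 in edgeR) at 86 to 178 estimated counts per embryo. The library kit does not keep strand, so that reads of the 146 bases cannot be assigned to either gene with certainty.

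Of the 16 annotated transcripts of TEAD1, 10 reached 3 counts in an embryo. The leading one, XM_021076972.1, carries both 63-base exons and the 12-base exon. Its share of the TEAD1 TPM was 70.8%, 74.5% and 69.4% in CN and 75.9%, 73.9% and 66.8% in PA (difference 0.69 percentage points, exact permutation p = 0.9). All transcripts with both 63-base exons together held 71.3% to 81.4% in CN and 72.1% to 79.1% in PA. Those with exon A alone held 15.5% to 27.3% and 17.4% to 23.8%, and those with exon B alone 1.37% to 4.90% and 3.21% to 4.11%. Transcripts with the 12-base exon held 80.8% to 88.7% in CN and 85.4% to 86.5% in PA. The last exon of the leading transcript reaches position 46396490, whereas it stops at 46399647 or before in all other transcripts but one, XM_021077005.1, which also carries both 63-base exons. That far end overlaps by 3242 bases with LOC110259298, a lncRNA gene on the plus strand with 1059 to 1467 estimated counts per embryo and a log2 fold change of -0.16 (SE 0.15, adjusted p = 0.584 in edgeR). At the other end, LOC102164222, a lncRNA gene on the plus strand, overlaps TEAD1 by 947 bases and had 16 to 34 estimated counts per embryo. The part of these reads in the TEAD1 level and in the share of its leading transcript was not tested.

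SOX6 had 50 annotated transcripts, of which 24 reached 3 counts in an embryo, and its leading transcript XM_021085345.1 ranked first in 6 of 6 embryos. That transcript held 53.9%, 36.1% and 44.1% of the SOX6 TPM in CN and 37.0%, 54.4% and 33.0% in PA (exact permutation p = 0.8). Transcripts with a first exon in the upstream cluster, at positions 42447391 to 42474177, held 64.6% to 69.6% in CN and 60.6% to 70.6% in PA. Those that begin in the internal cluster, at positions 42626877 to 42641782, held 30.4% to 35.4% in CN and 29.4% to 39.4% in PA. The sum over a cluster thus varied less among embryos than the leading transcript did.

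PITX1 had 3 annotated transcripts with the same 945 coding bases, and they differ in the first exon. The transcript with the proximal first exon, which starts at position 137207483 and runs to 137207379, held 37.7%, 45.8% and 36.6% of the PITX1 TPM in CN and 31.2%, 28.2% and 25.7% in PA. All PA values were below all CN values, with means of 40.0% ± 5.01 and 28.4% ± 2.75 (SD, n = 3). The estimated counts of this transcript overlapped, with 505, 679 and 645 in CN and 604, 551 and 457 in PA. The difference in its share was not tested. The transcript with the distal first exon, from 137212500 to 137212310, held 42.3%, 24.2% and 27.0% in CN and 31.3%, 38.7% and 42.0% in PA, and overlapped (exact permutation p = 0.4). The remaining transcript is annotated over the coding bases alone.

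SMAD5 transcripts varied widely among embryos of the same group. XM_021084787.1, which begins at position 138295704, held 48.3%, 70.2% and 31.8% of the SMAD5 TPM in CN and 47.9%, 49.4% and 29.7% in PA (exact permutation p = 0.5). Transcripts that begin at 138287635 held 46.9%, 24.2% and 64.5% in CN and 42.4%, 45.4% and 63.5% in PA. One that begins at 138288525 held 3.69% to 5.61% in CN and 5.17% to 9.69% in PA. ALX4 had 1 annotated transcript, so no share could be formed.

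**Figure D3:**
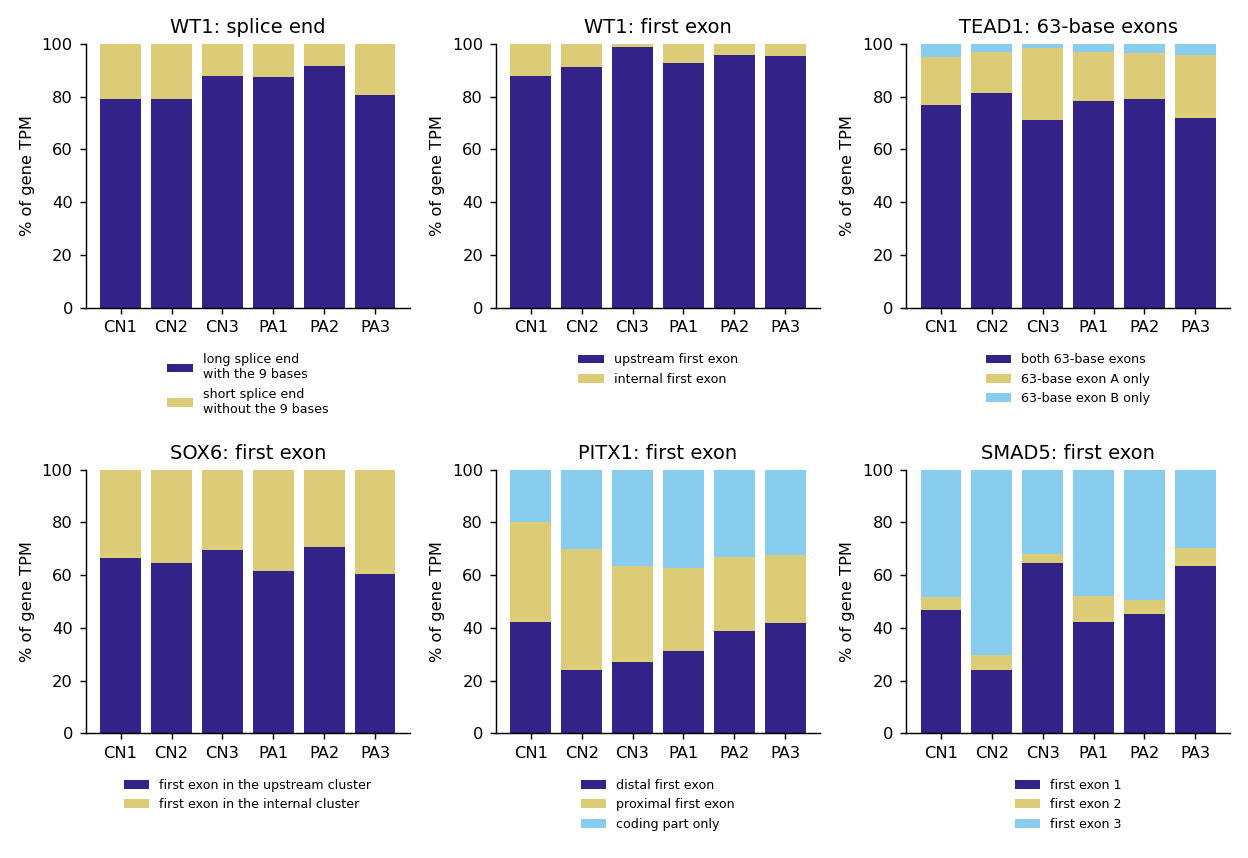
Share of the gene's TPM, in percent, held by groups of transcripts in each of the 6 embryos, as stacked bars. Proximal first exon transcripts of PITX1 took 36.6% to 45.8% in CN and 25.7% to 31.2% in PA, the only one of the plotted groups without overlap.

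The nearest tested protein-coding genes on each side were compared with each member. None of the 12 was called by edgeR, against 6.54% of all genes tested. An unadjusted p under 0.05 was found for 3 of 12, against 21.2%, and 5 of 12 did not overlap between groups, against 28.3% of all genes tested. WT1 lies between EIF3M, a translation initiation factor subunit (log2 fold change 0.03, adjusted p = 0.906), and LOC100737821 (-0.17, adjusted p = 0.717). ALX4 lies between CD82, a tetraspanin (-0.19, adjusted p = 0.276), and EXT2, a heparan sulfate polymerase (-0.04, adjusted p = 0.811). PITX1 lies between PCBD2 (-0.04, adjusted p = 0.928) and H2AFY, which encodes a macroH2A histone (0.03, adjusted p = 0.865). SOX6 lies between C2H11orf58 (-0.07, adjusted p = 0.807) and INSC, a spindle orientation protein (0.83, adjusted p = 0.0823). TEAD1 lies between RASSF10 (0.24, adjusted p = 0.538) and PARVA, an actin-binding adhesion protein (0.16, adjusted p = 0.268). SMAD5 lies between TGFBI, a matrix protein (0.28, adjusted p = 0.0901), and TRPC7, a cation channel (1.27, adjusted p = 0.0869). All adjusted p-values are those of edgeR.

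The genes whose profile over the 6 embryos was most like that of each member were found by the root mean square distance of centred log2 CPM, among 1538 chromosome 2 genes. Nearest to WT1 were MAN2A1 (distance 0.0536), SLC22A5 (0.0553) and KANK3 (0.0622). MAN2A1 was called lower, with a log2 fold change of -0.38 and an adjusted p of 0.0375 in edgeR. Nearest to ALX4 were KDM3B (0.0225), GMIP (0.0314) and MEGF10 (0.0373), and nearest to PITX1 were PLPPR2 (0.0729), LOC100518295 (0.0795) and SLC27A1 (0.0846). SOX6 was closest to KANK2 (0.0364), NOTCH3 (0.0522) and TRIM52 (0.0608). TEAD1 was closest to VCAN (0.0359), FBN3 (0.0367) and COL23A1 (0.0662), of which VCAN and FBN3 encode matrix proteins. SMAD5 was closest to TMEM86A (0.077), LOC100515772 (0.0857) and LVRN (0.0928). The median distance to all genes was 0.236 to 0.311. The distance takes in the difference between PA and CN, so that the direction of these genes follows from how they were picked.

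Genes of the same pathways that lie on chromosome 2 were then counted, members included, and the lists share some genes. WT1 is in the coelomic list, and ALX4 and PITX1 are in the limb list. SOX6 is in the chondrogenic list, TEAD1 in the Hippo list and SMAD5 in the BMP list. Of coelomic, gonad and nephron progenitor genes 2 were tested, and the member WT1 was the one called lower, against 4.42% over all genes. As given above, that call was lost without CN2, CN3, PA2 or PA3. The other, AMH, the hormone that regresses the Müllerian duct, was at 2.92 to 4.93 normalised CPM in CN and at 2.90 to 3.82 in PA. Of limb and craniofacial patterning genes 10 were tested and none was called, with a median log2 fold change of 0.18 beside 0.016 over all genes. The 3 highest in TPM were NR2F1, an orphan nuclear receptor (0.15, adjusted p = 0.275), EXT2, and DKK3, a secreted Dickkopf family protein (-0.07, adjusted p = 0.699). Of the 12 genes of this list on the chromosome, 2 did not pass the filter on low counts.

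Of chondrogenic genes 6 were tested and none was called, with a median of 0.27. The 3 highest were VCAN, a large matrix proteoglycan (0.18, adjusted p = 0.618), HAPLN1, a link protein (0.36, adjusted p = 0.202), and MEF2C, a MADS-box factor (-0.04, adjusted p = 0.895). Of BMP, TGF-beta and SMAD genes 10 were tested and none was called, with a median of 0.11. They include TGFBI, given above, RGMB, a BMP coreceptor (0.10, adjusted p = 0.618), and LTBP3, a binding protein of latent TGF-beta (0.09, adjusted p = 0.652). These p-values come from edgeR, which called no gene of the limb, chondrogenic or BMP lists. It gave 4 of 10, 2 of 6 and 2 of 10 an unadjusted p under 0.05, against 21.2% of all genes tested. The 4 limb genes include the members ALX4 and PITX1, already counted above. Other settings called some genes of these lists higher. Of the limb genes 1 was called without PA1. Of the chondrogenic genes 1 was called by DESeq2, without the filter on low counts and with the replicate number as a block. Of the BMP, TGF-beta and SMAD genes 2 were called by DESeq2, and 1 without the filter, without PA1 or without PA3. Over all genes, 59 of 1652 were called higher by DESeq2, 62 of 4269 without the filter and 33 of 1652 with the block. Without PA1 they were 42 of 1693, and without PA3 21 of 1690.

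Of Hippo and TEAD genes 5 were tested, and 1 was called lower, against 4.42% over all genes. It was CRB3, a polarity protein of epithelial cells. It stood at 344, 265 and 253 normalised CPM in CN and at 139, 114 and 120 in PA, and all PA values lay under all CN values. It fell by 1.21 on the log2 scale (SE 0.14, adjusted p = 0.00208 in edgeR). MARK2, a polarity kinase, had a log2 fold change of 0.05 (adjusted p = 0.846) and FJX1 one of -0.14 (adjusted p = 0.461). The median of the list was -0.14.

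**Figure D4:**
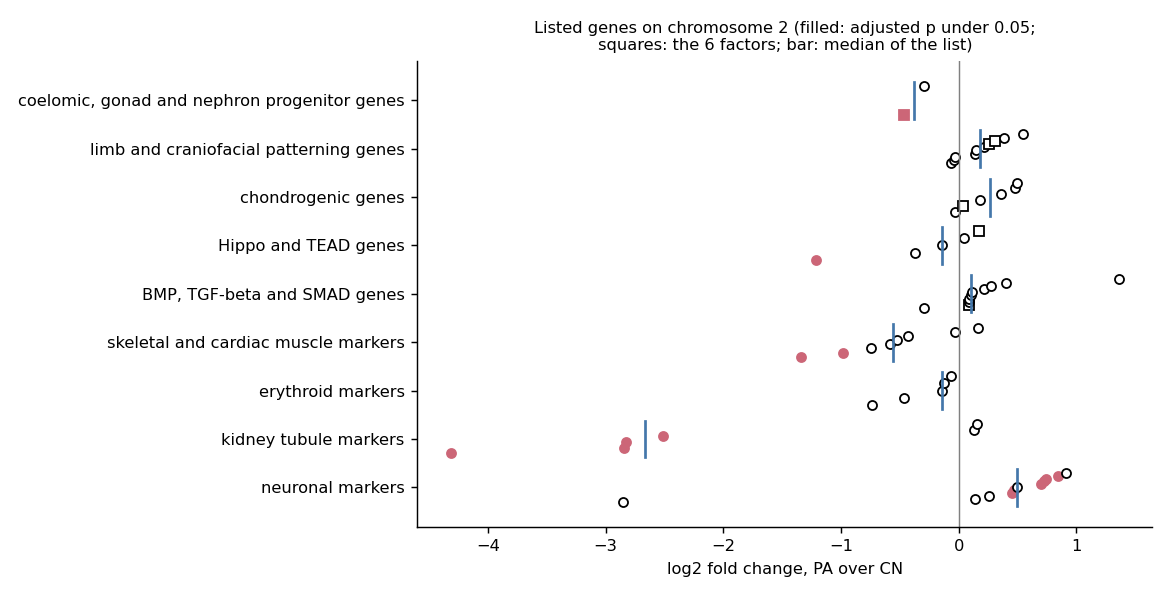
Log2 fold change of PA over CN (horizontal axis) for the listed genes tested on chromosome 2. Each point is a gene, filled where called, squares are the 6 factors, and the blue bar is the median of the list, which was -2.67 for kidney tubule and 0.49 for neuronal markers.

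Markers of other cell types were read in the same embryos, because a whole embryo holds all of them. The lists were chosen with earlier results of these data known, so their counts are a description and no test of enrichment. Of kidney tubule markers 4 of 6 tested were called lower, as WT1 was, and none higher, against 4.42% called lower over all genes. They were SLC34A1, a phosphate transporter (-2.51, adjusted p = 0.00324), the anion transporters SLC22A8 (-2.82, adjusted p = 0.00348) and SLC22A12 (-4.32, adjusted p = 0.000473), and DMGDH, a mitochondrial enzyme (-2.84, adjusted p = 0.00208). BHMT (0.16, adjusted p = 0.892) and SLC22A6, also an anion transporter (0.13, adjusted p = 0.839 in edgeR), were not called and had the opposite sign. SLC22A6 stood at 8.03 to 17.3 normalised CPM in CN and at 13.5 to 14.4 in PA. The list summed to 879 to 1169 CPM in CN and to 126 to 408 CPM in PA, and each of its 7 genes reached 3 counts in at least 1 embryo. The part of kidney cells in the WT1 result was not tested. DMGDH and BHMT are also liver genes.

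Of skeletal and cardiac muscle markers, 2 of 8 were called lower, against 4.42% over all genes: MYBPC3 of the cardiac thick filament (-0.98, adjusted p = 0.00677) and TNNI2, a fast skeletal troponin (-1.34, adjusted p = 0.00169). Without the filter on low counts 4 were called lower, against 134 of 4269 over all genes. CSRP3 had a log2 fold change of -0.58 (adjusted p = 0.119). MEF2C, listed here too, is given above. The list summed to 1666 to 1823 CPM in CN and to 1159 to 1309 CPM in PA. Of erythroid markers none of 5 was called: PRDX2 was at -0.13 (adjusted p = 0.638), LMO2 at -0.14 (adjusted p = 0.42) and KLF1 at -0.74 (adjusted p = 0.127) in edgeR. At an unadjusted p under 0.05 there were 2 of 5, against 21.2% over all genes. In other settings 1 gene of the list was called lower by DESeq2, 2 without the filter on low counts and 1 without CN1. Over all genes those settings called 114 of 1652, 134 of 4269 and 74 of 1690 lower. The list summed to 3939 to 5238 CPM in CN and to 3852 to 4268 CPM in PA. Most of this was PRDX2, at 3156 to 4493 normalised CPM in CN and 3181 to 3647 in PA. The groups did not overlap in 2 of 5, against 28.3% of all genes tested. These were KLF1 and LYL1 (-0.46, adjusted p = 0.126 in edgeR), both lower in PA.

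Of neuronal markers 6 of 11 were called higher, against 2.12% over all genes. They were DPYSL3 (0.47, adjusted p = 0.00708), ELAVL3 (0.46, adjusted p = 0.0165), PAX6 (0.84, adjusted p = 0.00159), NRXN2 (0.73, adjusted p = 0.0253), SYT13 (0.70, adjusted p = 0.00244) and UNC13A (0.74, adjusted p = 0.0189). The count was 3 of 11 when CN2 or PA2 was left out, against 7 of 1684 and 11 of 1689 over all genes. SNCB, which encodes beta-synuclein and is named after its values were seen, had the opposite sign, with 10.3, 10.5 and 4.98 normalised CPM in CN and 0.0735, 3.75 and 2.15 in PA. All its PA values were below its CN values, and its log2 fold change was -2.85 (SE 0.98, adjusted p = 0.132 in edgeR). Without the length offset, and also without the filter on low counts, 1 neuronal gene was called lower. Over all genes those settings called 77 of 1652 and 134 of 4269 lower. Summed, the list was at 4057 to 4520 CPM in CN and at 5978 to 6254 CPM in PA. The part of the mix of cell types in the values of the 6 factors was not tested.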

How the data were processed

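RNA of whole embryos was extracted with TRIzol, and TruSeq RNA v.2 libraries were sequenced by the authors. They quantified reads against the pig transcriptome with Salmon 1.3.0 and deposited, per transcript and embryo, estimated counts (not normalised) and TPM values, which Salmon scales to an equal sum in each embryo. Effective lengths in the deposited tables served for the length offset. The 81496 transcripts were joined to genes by NCBI Sus scrofa Annotation Release 106 of Sscrofa11.1, and 78336 were found there. Members were taken by symbol on chromosome 2. Nearly all counts fell on that chromosome or on transcripts absent from the annotation.

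Gene sums were rounded and fitted in edgeR 4.0.16 (R 4.3.3) with TMM factors, filterByExpr (minimum count 10, minimum total 15), robust quasi-likelihood fits and Benjamini-Hochberg adjustment over the 1652 genes tested. The standard error is the absolute log2 fold change over the square root of F. TPM was compared as log2(TPM + 0.1) and transcript shares as percent of gene TPM, both by exact two-sided permutation. Summed CPM of the marker lists carry no length offset. In each embryo, 3 counts are worth 0.84 to 0.968 CPM. DESeq2 1.42.0 and the other settings are covered in the closing part.

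The members and lists were chosen with earlier results of these data known. Text names the members, their nearest tested protein-coding genes, the 3 genes nearest in profile, every listed gene called and the up to 3 listed genes highest in mean TPM. IGF2, LYL1, SLC22A6, SNCB and the genes that overlap members were named beside this rule. Deviations of same-numbered embryos correlated at 0.225, 0.112 and 0.0265, which does not decide whether the numbers pair embryos. They were treated as unpaired, with the replicate number as a block in another setting. With that block the SE went from 0.17 to 0.084 for TEAD1 and from 0.13 to 0.088 for SOX6. Within groups no libraries were alike (chi-square per degree of freedom 5.80 to 95.1).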

Additional observations from a re-analysis of the deposited data

How the results depend on the processing

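WT1 stayed lower in PA under all 13 settings of the fit, between -0.53 and -0.41 on the log2 scale, and was called in 9 of them. Leaving out 1 embryo gave -0.49 to -0.41 and 0 to 1 members called lower, and ended the call in 4 of 6 cases. No setting called another member. With 104 genes called and WT1 at -0.47 (adjusted p = 0.0463), the replicate block ended no call of a member, turned no member's sign and raised the chondrogenic genes called higher from 0 to 1. Genes called were 108, of them 35 higher and 73 lower, with DESeq2 173, 59 and 114, and without the filter 196, 62 and 134 (77 instead of 48 with an absolute log2 fold change above 1). Library totals gave 23 higher. Leaving out 1 embryo gave 48 to 128 genes called, 7 to 42 higher and 41 to 86 lower. The cause was not tested.

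SOX6 turned to -0.017 with library totals and ran from -0.071 to 0.15 as single embryos were left out, SMAD5 from -0.049 to 0.19 and TEAD1 from 0.011 to 0.32. On the log2 TPM scale SOX6 went from -0.04 to 0.026 after TMM rescaling. There, leaving out 1 embryo gave -0.19 to 0.14 for SOX6, -0.14 to 0.29 for TEAD1, -0.12 to 0.18 for SMAD5, 0.11 to 0.37 for ALX4 and 0.051 to 0.29 for PITX1. Leading transcript shares then differed by -0.70 to 7.15 percentage points for WT1, -9.65 to 1.40 for SOX6, -1.17 to 3.39 for TEAD1, -16.9 to 2.26 for SMAD5 and 2.71 to 11.8 for PITX1. At 3 embryos a group, the 95% intervals of SOX6, TEAD1 and SMAD5 span 0, at 950 or more estimated counts per embryo.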
